A study of Mus musculus with 5 samples.

Results

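The genes described here encode 10 chaperones and folding enzymes of the endoplasmic reticulum (ER): Hspa5, Hsp90b1, Calr, Canx, Pdia3, Pdia4, Pdia6, P4hb, Dnajc3 and Hyou1. They were taken by Gencode gene symbol from a table of ribosome footprint counts on 135276 transcripts of 53637 genes. The 10 genes had 44 listed transcripts, 18 of them of the type protein_coding, and the protein_coding transcript with the most reads stands for its gene. All 10 genes passed the filter of 1 CPM (reads on a transcript, scaled to a common library size) in at least 1 library. The rule that takes them from the table uses no measured value, though the set was chosen with earlier results of these data known.

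Ribosome profiling (RIBO-seq) sequences the mRNA fragments that ribosomes shield from nuclease, so that reads on a transcript report how many ribosomes sat on it. The cells were mouse embryonic stem cells (mESCs), kept undifferentiated in medium with LIF and serum on gelatin, and the study's methods name the line 46C. All 5 libraries came from cells treated with cycloheximide, which arrests elongating ribosomes, and from lysates digested with RNase I. In the 3 standard RIBO-seq libraries, ribosomes were spun through sucrose. In the 2 AHARIBO RIBO-seq libraries, ribosomes were captured on magnetic beads through their nascent peptides, which carry azidohomoalanine (AHA), an analogue that the cell inserts in place of methionine. The labels call the cells of both methods untreated and give no AHA dose or time, and the study's methods state none for RIBO-seq. A legend of the workflow puts methionine depletion, AHA incubation and sBlock, an anisomycin-based reagent, before the lysates used for AHARIBO RIBO-seq. The methods also add sBlock to the nuclease digestion of both groups. The labels give 1 cell type and 1 growth protocol for both groups and call the libraries biological replicates. A legend of the study places standard RIBO-seq on the input, a word that another legend uses, for another experiment, for a lysate with AHA, so that both groups may have been labelled. Ribosome pelleting, peptide capture and any treatment given to the cells of 1 group alone, methionine depletion included, cannot be told apart as parts of a difference between the groups.

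Secreted and membrane proteins enter the ER while they are being made, and a resident set of chaperones folds them there. Hspa5 (BiP) is the ER Hsp70, which binds unfolded chains in an ATP cycle, and Hsp90b1 (GRP94) is the ER Hsp90. Calr and Canx are lectins that hold glycoproteins until their sugars are trimmed, and the protein disulfide isomerases form and shuffle disulfide bonds. When unfolded protein accumulates, the unfolded protein response raises transcription of these genes through factors such as Atf6 and Xbp1. Most luminal residents carry a short retrieval signal at their C-terminus, known as KDEL after its amino acids, which KDEL receptors in the Golgi recognise.

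The last 30 nt of the 10 coding sequences are shown because they hold this signal, with the last 4 sense codons in capitals and the stop codon after them. They were read from the Gencode M21 transcript sequences (build GRCm38) that carry the identifiers of the deposited transcripts.
Hspa5: gaggatacatcagaaAAAGATGAGTTGtag
Hsp90b1: aaggaatctacagagAAGGATGAATTGtaa
Calr: tcccctggccaagccAAGGATGAGCTGtag
Pdia6: ctggatgacctggagAAGGATGAGTTGtga
P4hb: gatcagaaagctgtgAAGGATGAACTGtag
Pdia3: aagaagaagaaggcaCAAGAGGACCTCtaa
Pdia4: aagaggagcaggaccAAGGAAGAGCTTtaa
Hyou1: aagcggccttcaaagAACGATGAACTAtaa
Canx: ccaagaaacagaaagCCACGAAGAGAGtga
Dnajc3: ccgttcagatttaagTTCCACTTCAATtaa
The first 5 genes encode the KDEL signal with different codons, Pdia3, Pdia4 and Hyou1 end in variants of it, and Canx and Dnajc3 end otherwise. Canx is a membrane protein whose tail lies in the cytosol, and Dnajc3 is a luminal co-chaperone.

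The promoters were searched for the ER stress element, through which the unfolded protein response acts, in its form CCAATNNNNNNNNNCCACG, on both strands. The searched windows ran from 250 bases before to 50 bases after the start site in the RefSeq table (GRCm38.p6). The motif was found in the windows of 37 of 27025 genes (0.137%), and in those of 6 of the 9 members that have a window. The motif was first described in promoters of ER chaperone genes, Hspa5 and Hsp90b1 among them, so that its presence in them is not independent of how it was defined. The matches are shown because they hold the letters of this element, with both ends of the motif in capitals, read on the strand that carries it.
Hspa5: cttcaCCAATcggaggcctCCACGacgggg
Hsp90b1, farther from the start site: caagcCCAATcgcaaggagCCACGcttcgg
Hsp90b1, nearer to the start site: actcaCCAATcgtgcctcaCCACGcactct
Calr: atgggCCAATgagggtcgaCCACGcgttgt
Canx: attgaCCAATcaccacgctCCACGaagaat
Pdia6: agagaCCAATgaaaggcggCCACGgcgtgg
Dnajc3: cacaaCCAATcagcgccaaCCACGacccgg
The centres of the motifs lay 56 bases (Hspa5, chr2:34771840-34772139, plus strand), 202 and 98 bases (Hsp90b1, chr10:86705395-86705694, minus strand), 152 bases (Calr, chr8:84846882-84847181, minus strand), 136 bases (Canx, chr11:50325624-50325923, minus strand), 88 bases (Pdia6, chr12:17266339-17266638, plus strand) and 96 bases (Dnajc3, chr14:118937682-118937981, plus strand) before the start site. The Calr match and the nearer Hsp90b1 match lay on the strand opposite to the gene. Pdia3, Pdia4 and P4hb held no match to these letters in the window, and Hyou1 was not in the promoter table. A match describes letters and does not show binding.

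All 10 genes were read by ribosomes in all 5 libraries, and their levels per length spanned nearly a full order of magnitude. A level is given as CPM per kb of coding sequence, which allows genes of different length to be compared. In standard RIBO-seq, Canx stood first with 86.0 ± 1.61 CPM per kb (SD, n = 3), and Dnajc3 stood last with 9.85 ± 1.45. The median of the 12337 protein-coding genes tested was 6.9 CPM per kb over all libraries, and Canx exceeded 95.3% of these genes, Hspa5 90.2%, Hyou1 78.6% and Dnajc3 60.1%. The 10 genes together held 0.222% to 0.227% of the reads on the highest transcripts of all genes in standard RIBO-seq and 0.236% to 0.247% in AHARIBO RIBO-seq. In a bulk lysate, fewer cells of a type and less RNA per cell cannot be told apart.

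Between P4hb, Calr and Pdia3, the next below Canx in standard RIBO-seq, neighbouring ranges overlapped (72.3 to 76.6, 69.8 to 76.3 and 69.1 to 73.8 CPM per kb). Hspa5 (48.0 to 48.7), Pdia6 (42.6 to 49.6) and Hsp90b1 (41.6 to 48.0) also overlapped with their neighbours. Pdia4 (28.4 to 30.8), Hyou1 (21.7 to 23.0) and Dnajc3 (8.29 to 11.2) each stood apart from the gene above. The order in AHARIBO RIBO-seq differed by exchanges within these overlapping sets, with Pdia3 above Calr and Hsp90b1 above Pdia6. The order depended on the length used, and per kb of the whole transcript, Calr stood first at 41.1 CPM per kb, ahead of Canx at 40.3 and P4hb at 40.0.

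**Figure D1:**
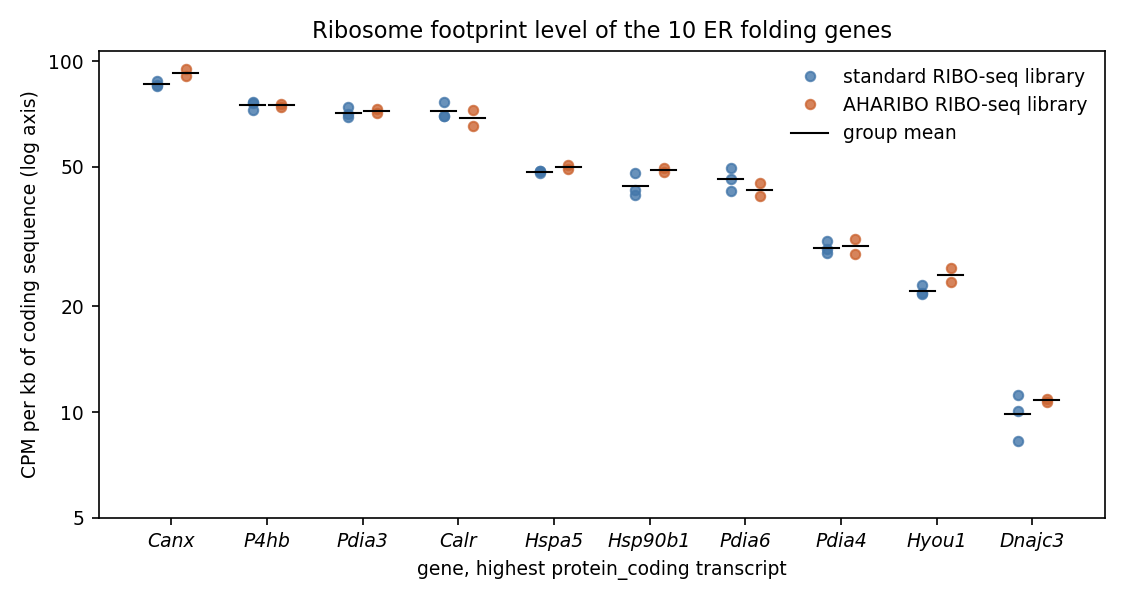
Footprint level of each gene in CPM per kb of coding sequence (log axis), with a point for each of the 3 standard (blue) and 2 AHARIBO (orange) RIBO-seq libraries and a line at each group mean. The levels run from 86.0 (Canx) to 9.85 (Dnajc3) in standard RIBO-seq, and the orange points lie close to the blue points for every gene.

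The main comparison asked whether capture through the nascent peptide yields the same amount of footprints on these mRNAs as pelleting of all ribosomes. None of the 10 genes differed between the methods at an adjusted p under 0.05 (edgeR quasi-likelihood test, Benjamini-Hochberg adjustment over all transcripts), and 0 of 10 had an unadjusted p under 0.05, which 18.7% of all transcripts tested had. Over all 66972 transcripts tested, 3021 passed this threshold (4.51%), 1520 of them higher in AHARIBO RIBO-seq. Without AHARIBO replicate 1, standard replicate 1 or standard replicate 3, the count over all transcripts was 510, 1173 and 1815, and that of the 10 genes stayed at 0. The log2 fold changes of the 10 genes (AHARIBO over standard) ran from -0.09 to 0.15 with a median of 0.03, 7 of them above 0. The highest transcripts of the 12337 coding genes had a median of 0.00, and 49.4% of them lay above 0. For 4 of the 10 genes the CPM of the groups did not overlap, all 4 higher in AHARIBO RIBO-seq, beside 33.8% of all transcripts tested whose groups did not overlap in either direction.

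Among the Hsp70 and Hsp90 system, Hspa5 (Hspa5-202, chr2:34772095-34776531, plus strand) had 95.7, 95.6 and 94.2 CPM in standard RIBO-seq and 96.5 and 99.2 CPM in AHARIBO RIBO-seq. Both AHARIBO values lay above all 3 standard values, by little: the log2 fold change was 0.04 ± 0.08 (SE), and the 95% interval of the fold was 0.924 to 1.14 (adjusted p = 0.844, edgeR). A second protein_coding transcript, Hspa5-201, held nearly the same reads, with a log2 fold change of 0.05.
Hsp90b1 (Hsp90b1-201, chr10:86690840-86705509, minus strand) had 103, 100 and 115 CPM in standard RIBO-seq and 120 and 116 CPM in AHARIBO RIBO-seq. Its groups were also apart, and its log2 fold change of 0.15 ± 0.08 had the lowest p of the 10 genes (0.057, adjusted p = 0.286, edgeR; fold 0.999 to 1.24). Of the 30-nt stretches of its transcript, 5.11% also occur in Gm15344 or Gm25745, so that reads there cannot be told apart.
Hyou1, a large Hsp70-like protein that exchanges nucleotide on Hspa5, was read from Hyou1-206 (chr9:44379573-44392363, plus strand). It had 68.8, 64.9 and 65.4 CPM in standard RIBO-seq and 77.0 and 70.1 CPM in AHARIBO RIBO-seq, again with both AHARIBO values on top. The log2 fold change was 0.15 ± 0.08 (adjusted p = 0.32, edgeR; fold 0.993 to 1.24).
Dnajc3 (P58IPK), a J-domain protein that hands clients to Hspa5, has only Dnajc3-201 (chr14:118937976-118981697, plus strand) in the table. It had 15.2, 16.9 and 12.5 CPM in standard RIBO-seq and 16.5 and 16.2 CPM in AHARIBO RIBO-seq. The groups overlapped, and the interval was the widest of the 10 genes, with a fold of 0.922 to 1.27 (log2 fold change 0.12 ± 0.12, adjusted p = 0.657, edgeR).

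Of the lectin chaperones, the membrane-bound Canx (Canx-201, chr11:50294467-50325673, minus strand) had 150, 151 and 156 CPM in standard RIBO-seq and 161 and 168 CPM in AHARIBO RIBO-seq. The groups did not overlap, with a log2 fold change of 0.11 ± 0.08 (adjusted p = 0.469, edgeR; fold 0.973 to 1.2). Its soluble relative Calr (Calr-201, chr8:84841850-84846934, minus strand) had 87.2, 87.2 and 95.2 CPM in standard RIBO-seq and 81.4 and 90.8 CPM in AHARIBO RIBO-seq. These groups overlapped, and the log2 fold change was -0.06 ± 0.08 (adjusted p = 0.754, edgeR; fold 0.86 to 1.07). A share of 2.83% of the 30-nt stretches of Calr also occurs in its pseudogene Calr-ps.

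The 4 disulfide isomerases overlapped between the methods. P4hb, the founding isomerase and also a subunit of prolyl 4-hydroxylase, had 110, 117 and 116 CPM in standard RIBO-seq and 115 and 113 CPM in AHARIBO RIBO-seq (P4hb-201, chr11:120560298-120573253, minus strand). Its log2 fold change was 0.00 ± 0.08, with a fold of 0.898 to 1.11 (adjusted p = 0.989, edgeR).
Pdia3 (ERp57), which works on glycoproteins held by Calr and Canx, had 105, 107 and 112 CPM in standard RIBO-seq and 108 and 110 CPM in AHARIBO RIBO-seq (Pdia3-201, chr2:121413775-121438687, plus strand). The AHARIBO values fell inside the standard range, and the fold was 0.91 to 1.12 (log2 fold change 0.02 ± 0.08, adjusted p = 0.942, edgeR).
Pdia4 (ERp72) had 54.6, 59.2 and 56.0 CPM in standard RIBO-seq and 59.8 and 54.4 CPM in AHARIBO RIBO-seq (Pdia4-201, chr6:47796141-47813430, minus strand). The AHARIBO libraries lay on either side of the standard range, with a fold of 0.903 to 1.13 (log2 fold change 0.02 ± 0.08, adjusted p = 0.952, edgeR).
Pdia6 (P5), which associates with Hspa5, had 56.9, 61.5 and 66.2 CPM in standard RIBO-seq and 59.9 and 55.0 CPM in AHARIBO RIBO-seq (Pdia6-201, chr12:17266545-17284770, plus strand). It had the lowest log2 fold change of the 10 genes, -0.09 ± 0.08, and its fold of 0.838 to 1.05 spanned no change (adjusted p = 0.612, edgeR).

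A difference of 1.27-fold up or of 0.838-fold down lay at or beyond the outer limits of the 95% intervals of all 10 genes. These intervals rest on 2 AHARIBO and 3 standard libraries and a spread shared across transcripts.

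**Figure D2:**
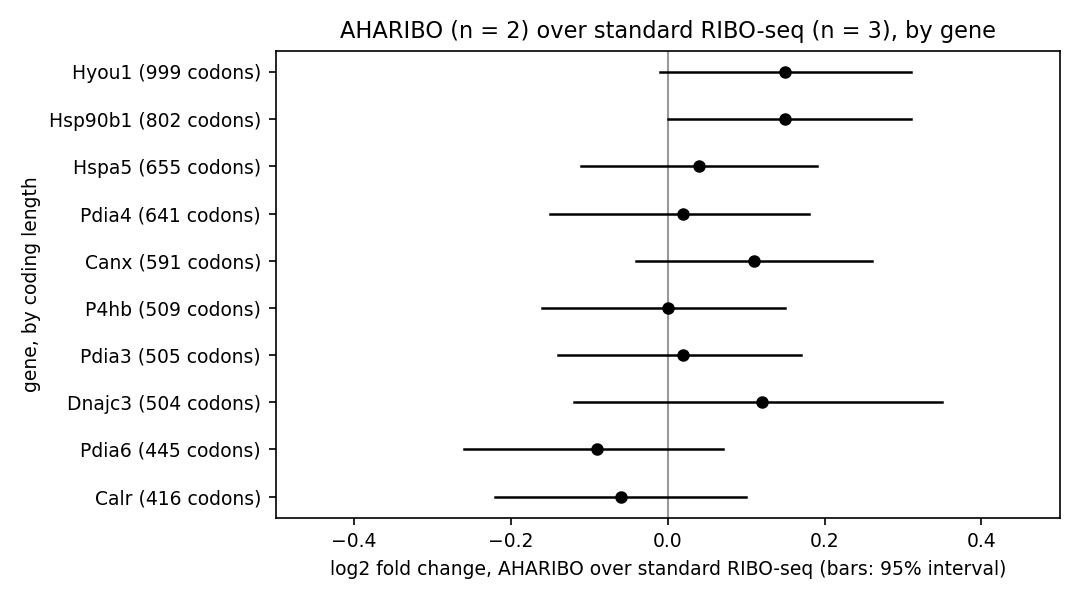
Log2 fold change of each gene, AHARIBO (n = 2) over standard (n = 3) RIBO-seq, with its 95% interval as a bar, ordered by coding length in codons. Every interval reaches 0 within rounding, and the values of Hyou1 and Hsp90b1, with the longest coding sequences, are the highest at 0.15.

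The lowest fold changes belonged to the genes with the shortest coding sequences and the highest to those with the longest, from Calr (416 codons, -0.06) and Pdia6 (445 codons, -0.09) to Hsp90b1 (802 codons, 0.15) and Hyou1 (999 codons, 0.15). Across the 10 genes, which share the same libraries, Pearson's r of log2 fold change was 0.74 with codons (Spearman's rho 0.71), 0.79 with the number of methionine codons (rho 0.88) and 0.75 with their percentage (rho 0.85). With each library left out these r ran from 0.44 to 0.82, from 0.53 to 0.87 and from 0.50 to 0.86, with the lowest values without AHARIBO RIBO-seq replicate 1 (0.44) or standard RIBO-seq replicate 2 (0.53 and 0.50). The share of methionine codons ran from 0.98% in P4hb (5 codons) to 2.37% in Hsp90b1 (19 codons), beside a median of 2.13% for 12216 coding genes. Over these 12216 genes the length relation was weak (r = 0.22 with the logarithm of codons, rho 0.28). The r of the 10 genes with length used codons without a logarithm, so for length only the rho values share a scale. The number of methionine codons gave r = 0.17 and rho 0.26. By length, the genes had median log2 fold changes of -0.09, -0.03, 0.02 and 0.09 in 4 groups of nearly equal size from the shortest to the longest. The methionine share had r = -0.02 and rho 0.00 over the same genes (medians in 4 groups -0.02, 0.01, 0.01 and -0.01). These relations were looked at after the values of the 10 genes had been seen and are descriptions across genes, which are not independent replicates.

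Reads were also compared by position within the genes. Shorter listed transcripts of a gene cover part of its highest transcript, and their counts give the number of reads inside that stretch, here called a window. The share of reads inside a window was compared between methods as a log2 odds ratio, inside over outside, AHARIBO over standard, in which the total level of the gene cancels. A read there cannot be assigned to the shorter or the longer RNA, so that a window measures a stretch and not the shorter isoform. The shares take it that such a read was counted on both transcripts, which the sources used here do not state, and reads on any part of the shorter transcript outside the highest one would add to them. This comparison was chosen after the counts had been seen.

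Over 6209 windows of 2516 genes, 663 had an adjusted p under 0.05 (10.7%), 207 higher and 456 lower in AHARIBO RIBO-seq. Of the 21 windows in 9 of the ER folding genes, 3 passed, 1 in Hspa5 and 2 in Pdia3. A share of 3 in 21 is near the background of 10.7%. With only windows at least 90% inside the highest transcript, 3 of 9 member windows and 216 of all 2239 passed. Without AHARIBO RIBO-seq replicate 1, 0 of the 21 windows and 103 of all 6209 passed (edgeR), and 872 of all windows had an unadjusted p under 0.05. Without standard RIBO-seq replicate 1 or 3, 2 and 3 of the 21 windows and 378 and 359 of all windows passed. The groups did not overlap for 13 of the 21 windows, beside 37.7% of all windows.

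The Pdia3 window covering codons 1 to 56 and 83 to 108 held 32.0%, 31.5% and 31.6% of the gene's reads in standard RIBO-seq and 23.6% and 27.5% in AHARIBO RIBO-seq. Both AHARIBO shares were lower than all 3 standard shares, which differed little among themselves. The log2 odds ratio was -0.44 ± 0.09 (SE; 95% interval -0.62 to -0.26, adjusted p = 0.000403, edgeR). The Pdia3 window covering codons 24 to 122 and 201 to 343 held 37.1%, 36.8% and 38.9% of the reads in standard RIBO-seq and 43.9% and 40.7% in AHARIBO RIBO-seq, and its log2 odds ratio was 0.30 ± 0.08 (adjusted p = 0.0124, edgeR). These windows share codons 24 to 56 and 83 to 108, and the first also holds 156 nt before the start codon, the second none. The third Pdia3 window, codons 118 to 240, overlaps both pieces of the second and had overlapping shares and a log2 odds ratio of 0.00 ± 0.11. Without AHARIBO RIBO-seq replicate 1, the values of the first and second Pdia3 windows were -0.29 and 0.20 (adjusted p = 0.184 and 0.424, edgeR), and without standard RIBO-seq replicate 1 the second had an adjusted p of 0.0656 (edgeR).

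The Hspa5 window covering codons 1 to 42 and 98 to 165 held 31.5%, 32.3% and 35.4% of the reads in standard RIBO-seq and 26.3% and 28.2% in AHARIBO RIBO-seq. The window also holds 141 nt before the start codon. The shares did not overlap, with a log2 odds ratio of -0.39 ± 0.10 (95% interval -0.57 to -0.20, adjusted p = 0.00362, edgeR). The Hspa5 windows over codons 50 to 258, 166 to 305 and 413 to 490 had log2 odds ratios of 0.24, 0.22 and 0.32, with adjusted p between 0.0945 and 0.203 (edgeR), and in each of them both AHARIBO shares lay above the 3 standard shares. Windows of a gene overlap and share an outside, so these values are not independent. Without AHARIBO RIBO-seq replicate 1, the log2 odds ratio of the first Hspa5 window was -0.31 (adjusted p = 0.17, edgeR).

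**Figure D3:**
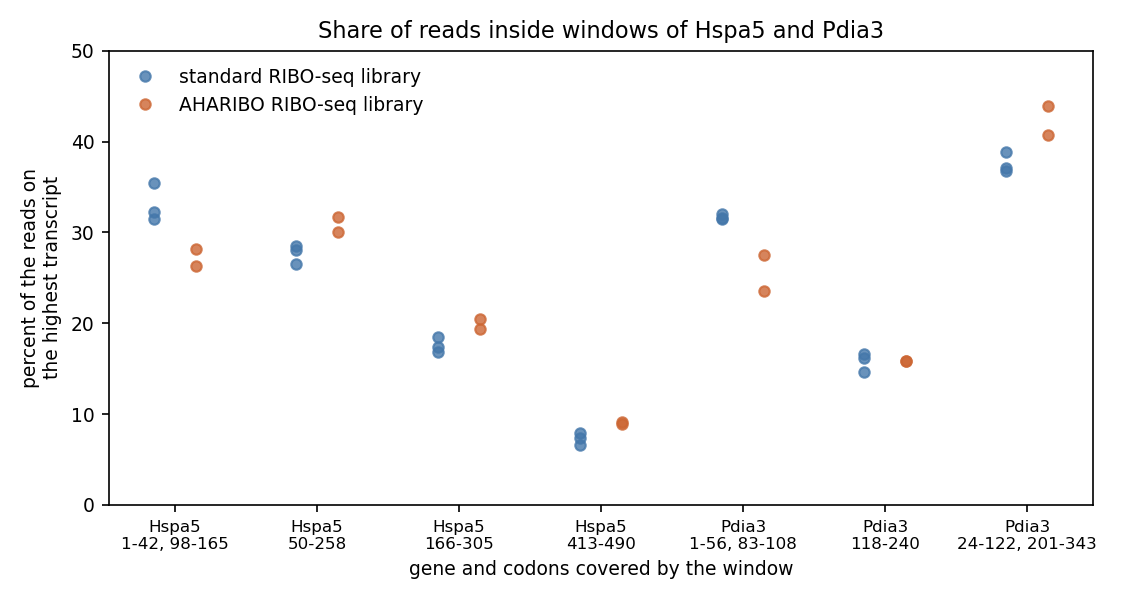
Percentage of the reads on the highest transcript that lay inside each window of Hspa5 and Pdia3, with a point for each standard (blue) and AHARIBO (orange) library and the codons covered written under the points. The orange points lie below the blue points in the windows that include codon 1, which also hold bases before the start codon, and above them in the 3 later Hspa5 windows.

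The starts of both coding sequences are shown because the first window of each gene covers them, as the first 90 nt with methionine codons in capitals. Both encode the signal peptide that directs the chain to the ER and is then cut off.
Hspa5: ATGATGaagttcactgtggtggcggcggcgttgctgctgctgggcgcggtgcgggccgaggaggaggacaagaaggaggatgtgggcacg
Pdia3: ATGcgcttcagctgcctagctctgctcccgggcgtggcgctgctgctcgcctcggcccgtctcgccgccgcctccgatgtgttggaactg
After its first codon, Hspa5 has methionine codons at positions 2 and 149, and Pdia3 at positions 48 and 227. In the other genes the next methionine codon came at position 6 (Pdia6), 36 (Hyou1), 84 (Dnajc3), 85 (Hsp90b1), 110 (Canx), 122 (Calr), 123 (Pdia4) and 326 (P4hb).

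Of the 9 member windows whose mean position lay in the first 20% of the coding sequence, 7 had a log2 odds ratio below 0, with a median of -0.20. Over all 2351 windows in that part of genes, 73.8% were below 0, with a median of -0.15, and the medians in the following stretches of 20% were -0.03, 0.06, 0.08 and 0.07. Without AHARIBO RIBO-seq replicate 1, 7 of the 9 were below 0 with a median of -0.17, beside a median of -0.11 over all 2351. Of these windows, 1969 also held bases before the start codon, and their median was -0.17 with 77.4% below 0. The 382 windows without such bases had a median of -0.02, with 55.5% below 0. Among the 9 member windows, 7 held such bases (6 below 0) and 2 did not (1 below 0). Counts per transcript cannot divide the reads of a window between leader and coding sequence, so that the values of windows with a leader are not those of codons alone. The 2 Calr windows among the 9 cover the same codons, 1 to 133, with shares of 37.4% to 39.9% in standard RIBO-seq and 34.3% to 36.6% in AHARIBO RIBO-seq and log2 odds ratios of -0.21 and -0.20 (adjusted p = 0.149 and 0.163, edgeR). In Hyou1 the windows over codons 1 to 154 and over codons 4 to 46 and 95 to 278 had values of -0.13 and -0.27, and in Pdia4 the window over codons 1 to 30 and 86 to 152 had -0.08. The 2 early windows above 0 were those of Pdia6 (codons 1 to 78, 0.23 ± 0.13) and Hsp90b1 (codons 99 to 165, 0.25 ± 0.17). None of these passed the test. Of the shorter transcripts behind the 2 windows above 0, 56.0% (Pdia6) and 74.6% (Hsp90b1) of the length lay inside the highest transcript. The Calr transcripts had 58.9% and 50.2% inside, and reads from elsewhere can add to such counts. With windows at least 90% inside, 5 of 5 early member windows were below 0, beside 75.7% of all 705 such windows. At 100% inside, 4 of 4 were, beside 79.2% of 346. The P4hb window joins codons 1 to 51 with codons 395 to 509 and with 34 nt before and 241 nt after the coding sequence, and so mixes both ends (-0.20 ± 0.08, adjusted p = 0.117, edgeR).

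**Figure D4:**
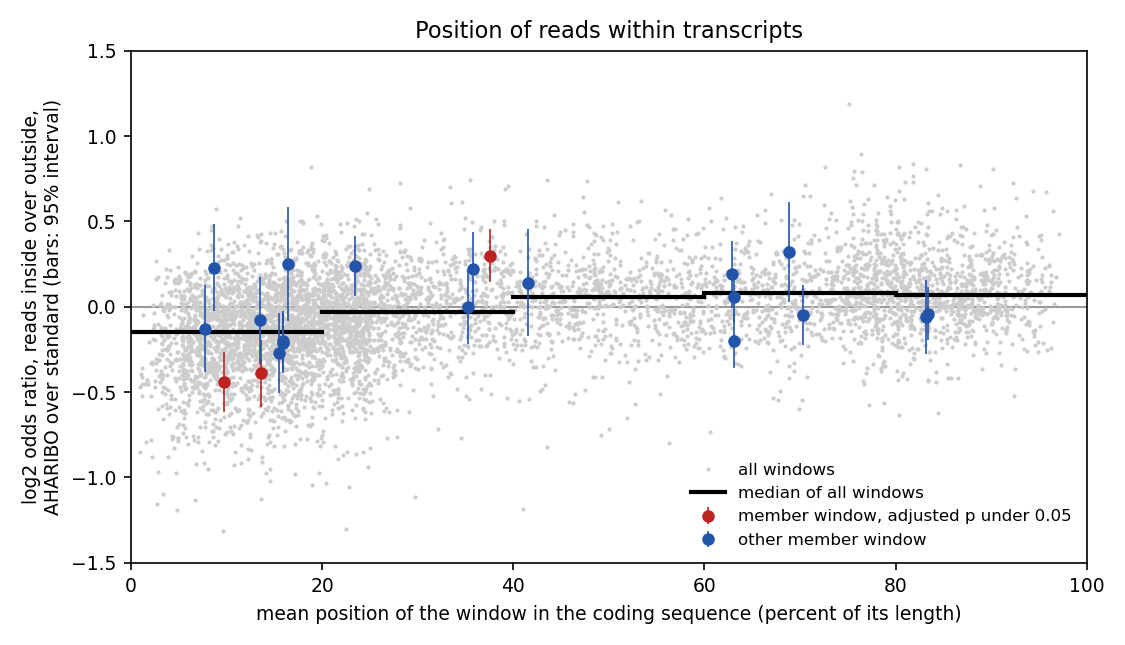
Log2 odds ratio of reads inside over outside each window, AHARIBO over standard RIBO-seq, against the mean position of the window in the coding sequence (grey: all 6209 windows; black lines: median in each 20% of the length; red and blue: windows of the ER folding genes with 95% intervals, red at an adjusted p under 0.05). The black line rises from -0.15 at the start to 0.08 between 60% and 80% of the length, and the windows of the ER folding genes scatter around it.

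The 44 listed transcripts of the 10 genes, tested each on its own in the same fit as the genes, gave 0 calls at an adjusted p under 0.05 and 13 with an unadjusted p under 0.05 (edgeR), which 18.7% of all transcripts tested had. The lowest adjusted p, 0.0555, belonged to the transcript behind the first Pdia3 window, which had a log2 fold change of -0.30 ± 0.09. The next were retained-intron transcripts of Hsp90b1, with log2 fold changes of 0.32 ± 0.11 and 0.24 ± 0.08 (adjusted p = 0.0716 and 0.0736, edgeR), above the value of the whole coding transcript.

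The other genes of the pathway were taken from 6 lists with 78 genes, all of which passed the filter. In these lists 0 of 78 genes had an adjusted p under 0.05, 15 had an unadjusted p under 0.05 (18.7% of all transcripts tested had one), and the median log2 fold change was -0.04 (edgeR). The groups did not overlap for 25 of the 78 genes, beside 33.8% of all transcripts. The highest CPM in the lists belonged to Vcp, Ganab and Rpn2. Vcp, the ATPase that pulls proteins from the ER for degradation, had 180 to 198 CPM in standard RIBO-seq and 190 in both AHARIBO libraries (log2 fold change 0.00 ± 0.08). Ganab, the catalytic subunit of the glucosidase that prepares glycans for Calr and Canx, had 121 to 124 CPM and 120 to 128 CPM (0.01 ± 0.08). Rpn2, a subunit of the oligosaccharyltransferase, had 110 to 122 CPM and 112 to 115 CPM (-0.03 ± 0.08).

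By list, to be read against the same 18.7%, the 7 sensors and transcription factors of the unfolded protein response had log2 fold changes with a median of -0.13 (3 at an unadjusted p under 0.05), and the 22 other luminal chaperones and folding enzymes a median of -0.06 (7 at an unadjusted p under 0.05). The 3 KDEL receptors had -0.05 (0), the 20 genes of signal recognition and the translocon 0.06 (3), the 13 of N-glycosylation and glycan trimming -0.03 (1) and the 13 of ER-associated degradation -0.04 (1). The response factors of the first list are named here after their values were seen. Atf6, the membrane-bound factor that binds the ER stress element once cleaved, had 19.9, 19.6 and 19.7 CPM in standard RIBO-seq and 25.4 and 23.1 CPM in AHARIBO RIBO-seq. Its groups were apart, with a log2 fold change of 0.30 ± 0.10 (adjusted p = 0.0803, edgeR). Atf4 had 68.9, 72.2 and 75.7 CPM in standard RIBO-seq and 61.9 and 64.5 CPM in AHARIBO RIBO-seq (-0.19 ± 0.08, adjusted p = 0.181, edgeR), and Xbp1 had 13.6 to 19.1 CPM and 12.4 to 14.6 CPM (-0.27 ± 0.13, adjusted p = 0.227, edgeR). Ddit3, which encodes the stress factor CHOP, stayed at 2.54 to 3.58 CPM in all libraries.

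**Figure D5:**
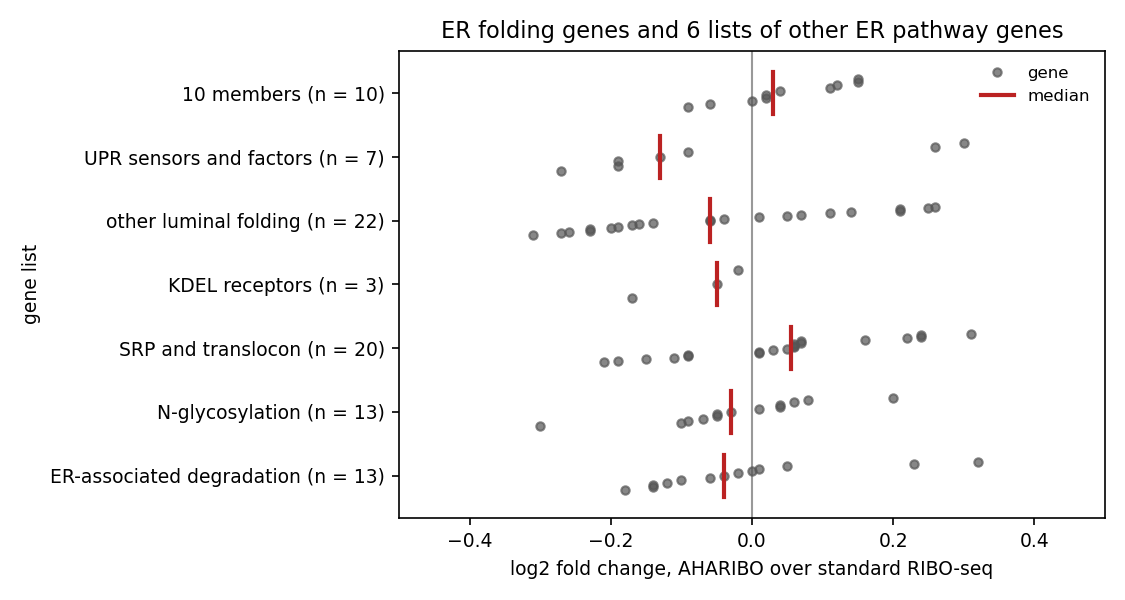
Log2 fold change of each gene (grey points), AHARIBO over standard RIBO-seq, for the 10 ER folding genes and the 6 lists of other ER pathway genes, with each list's median in red. All points lie between -0.31 and 0.32, and the medians between -0.13 and 0.06.

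The pattern of the 10 genes over the 5 libraries, as the mean of their centred log2(CPM + 1), moved between -0.04 and 0.04. The genes with the most similar pattern among 7802 others were Camk2g (r = 0.9996), Gba2 (0.9955), Vps33b (0.9954), Opa1 (0.9928) and Capza1 (0.9927), over 5 libraries. With 5 points, 141 genes exceeded r = 0.9, and the 10 genes themselves correlated with their own mean between -0.313 and 0.765.

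The libraries held 6403651 to 11150527 reads after removal of duplicates, so that 3 counts equal 0.262 to 0.476 CPM, a floor that covers counting error only. Of the labelled cell type, all 10 stem cell markers had at least 40.0 CPM (Fgf4) in every library, while Dcn, Postn and Col3a1 of the fibroblast list and Dcx of the neuron list were at or near 0. Tubb3 of the neuron list had 31.7 to 36.8 CPM in every library. Map2 (3.0 to 4.72 CPM), Elavl3 (2.97 to 4.08) and Neurod1 (1.59 to 2.4) of that list also lay above the floor in every library. So did Thy1 of the fibroblast list (2.32 to 3.49 CPM), while Col1a1 and Col1a2 had at most 1.46 and 0.56 CPM. The stem cell list summed to 1430 to 1510 CPM in standard and 1280 to 1390 CPM in AHARIBO RIBO-seq, with 3 of the 10 genes, Sox2, Klf2 and Klf4, lower at an adjusted p under 0.05 (log2 fold changes -0.32, -0.46 and -0.34, edgeR), beside 4.51% of all transcripts in either direction. The values of the others ran from -0.26 (Fgf4) to 0.03 (Nanog and Tdgf1), with Esrrb at 0.00 and Zfp42 at -0.02, and the marker calls were not run under the alternatives. The endoderm list, which stands for secretory cells, summed to 101 to 116 and 106 to 111 CPM, mostly from Sparc and Lamb1. The fibroblast list summed to 374 to 420 and 394 to 415 CPM, of which Fn1 gave at least 369 CPM in each library, and the neuron list to 44.7 to 46.6 and 41.7 to 42.1 CPM. Their part in the values of the ER folding genes was not tested.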

How the data were processed

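RIBO-seq reads from mESCs were deposited by the authors as counts of reads per transcript, without normalization, with duplicate reads removed (used here) or kept. Per the labels and methods, reads were trimmed with Trimmomatic 0.36, freed of rRNA and tRNA, and aligned with STAR to Gencode M17 transcripts (GRCm38.p6), and antisense reads were removed. How reads matching several transcripts were counted is not given in the sources used here, so transcripts of a gene share reads. Without molecular identifiers, duplicate removal also removes independent fragments. Of the deposited sample columns, 0 were left unused.

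Groups and replicates followed the labels. TMM factors, CPM and the quasi-likelihood test came from edgeR 4.0.16 (R 4.3.3) over all transcripts with 1 CPM in at least 1 library, with Benjamini-Hochberg adjustment. Standard errors (log2 fold change over the root of F) and 95% intervals (1.96 SE) are approximate. Both tests were tested on simulated data. Annotation came from Gencode M21, which held 99.83% of the deposited identifiers.

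Windows are shorter transcripts with at least 50% of their length in the highest transcript, covering at least 90 coding nt and at most 50% of the coding sequence, with a mean of at least 50 reads inside and outside. They were tested in edgeR as an interaction of inside and method.

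The members and lists were chosen with earlier results of these data known. The text names all members, any pathway gene passing the test, the 3 pathway genes with the highest CPM, and the 5 genes of most similar pattern (mean CPM of at least 10). Other named genes were chosen after their values were seen. The replicate numbers were not taken to pair libraries across methods. Alternatives covered DESeq2 1.42.0, normalization, filters, duplicates, transcript choice, the replicate block and leaving out each library.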

Additional observations from a re-analysis of the deposited data

How the results depend on the processing

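The member genes called stayed at 0 of 10 under all 14 alternatives, and 0 of 140 log2 fold changes passed the threshold (lowest adjusted p 0.145, values -0.15 to 0.23). Of these, 127 kept their sign. Opposite signs were found for Calr with duplicates kept (0.02) and without AHARIBO RIBO-seq replicate 1 (0.02), for Pdia3 (0.00) and Pdia4 (-0.01) without standard RIBO-seq replicate 1, for Pdia4 without AHARIBO RIBO-seq replicate 1 (-0.06), and for P4hb with library sizes alone (0.03), duplicates kept (0.02), counts summed per gene (0.00), 1 transcript per gene (0.03), the replicate block (0.01), and without standard replicates 2 (0.01) or 3 (0.00) or AHARIBO replicate 2 (0.01). With each library left out, the log2 fold change ran from 0.02 to 0.06 for Hspa5, 0.11 to 0.21 for Hsp90b1, -0.14 to 0.02 for Calr, 0.08 to 0.14 for Canx, 0.00 to 0.04 for Pdia3, -0.06 to 0.08 for Pdia4, -0.15 to -0.03 for Pdia6, -0.03 to 0.01 for P4hb, 0.03 to 0.22 for Dnajc3 and 0.08 to 0.22 for Hyou1. The other ER pathway genes called were 0 in the report, 1 of 67 (Atf6, log2 fold change 0.30, adjusted p = 0.0467, edgeR) at a minimum of 10 CPM, and 0 to 2 with each library left out. The 2 were Sec63 (0.44) and Ufd1 (0.46), called without AHARIBO RIBO-seq replicate 2. All transcripts called numbered 312 with DESeq2, 88 of 20121 with counts summed per gene, 900 of 23122 with 1 transcript per gene, and 510 to 3829 with each library left out (1173, 1815 and 510 without standard replicate 1, standard replicate 3 and AHARIBO replicate 1). The replicate block gave 1792 transcripts and 0 member or other ER pathway genes called. Same-numbered libraries did not deviate together (correlations 0.0355 and -0.0942), and the block changed no call among the member and other ER pathway genes. It was not run for the windows or the marker genes. Of the members' 30 ranks by level per length under other measures, 12 moved, and Hyou1 moved most, from 9 to 4 with CPM summed over its protein_coding transcripts. The member windows called were 3 of 21, 1 of 6 when only windows lying 100% inside the highest transcript were used, and 0 to 3 with each library left out. All windows called numbered 216 of 2239 at 90% inside, 103 of 1190 at 100% inside, and 103 to 622 with each library left out. At 90% inside, 3 of 9 member windows were called, and with duplicates kept 4 of 21, beside 764 of all 6207. With fewer windows or libraries there is less to test, and otherwise the cause was not tested. The 2 AHARIBO libraries limit the precision of every difference.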
